A study of Mus musculus with 6 samples.

Results

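The genes described here run the ISG15 system, which fastens a small ubiquitin-like protein, ISG15, to other proteins and takes it off again. They are Isg15, its activating enzyme Uba7 (older name Ube1l), its conjugating enzyme Ube2l6, the ligases Herc6 and Trim25, and the protease Usp18. The members were all probes of the non-normalized intensity table named for one of these genes. The rule gave 7 of the 45281 probes on the array, for 4 of the 6 genes, with 2 probes each for Usp18, Ube2l6 and Trim25 and 1 for Uba7. No probe carried the name of Isg15 or of Herc6. A probe listed under LOC100038882, which holds the RefSeq gene identifier of Isg15, and a probe listed under HERC5, a synonym of Herc6 in the reference table, are described beside the 7 and kept out of their count. They were added after the names in the table were seen.

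The arrays measured RNA of fibroblasts that surround a carcinoma, grown as an explant from a pancreatic tumour of a KPC-Brca1 mouse. All 6 plates came from that tumour, 3 of them untreated and 3 given 2 micromolar decitabine (5-aza-dC, abbreviated DAC) over 48 hours. Decitabine is a cytidine analogue that traps DNA methyltransferases on DNA. The series asked for genes that DAC switches on in such fibroblasts. Since the plates stand for 1 culture of 1 animal, p-values here measure the spread between plates only, and the number of arrays limits their precision.

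Between 16205 and 17180 probes were detected per array (detection p under 0.01), and each probe was read on a median of 43 or 44 beads. The log2 intensities correlated at 0.993 to 0.996 between arrays of one group and at 0.974 to 0.980 between groups. Of the 11 fibroblast markers, 10 were tested, and the group sums of their linear intensities overlapped (55090 to 58720 untreated, 52830 to 55600 with DAC), sums that the brightest of them dominate. Of the 10, only Lum was called, 1.67-fold lower with DAC (limma adjusted p = 0.000344), and Fap was detected on 1 array. None of 6 endothelial markers was detected on any array. Of 9 epithelial markers, Epcam, Cdh1 and Cldn4 were never detected, while 6 were tested: Krt7, Krt8, Krt18, Krt19, Cldn7 and Muc1. Among these, Krt19 was 2.30-fold lower (limma adjusted p = 1.98e-05) and Krt7 1.72-fold higher (adjusted p = 9.50e-05) with DAC. The other 4 were not called. Over all 11518 genes, each by its brightest kept probe, 14.1% were called higher and 13.9% lower with DAC. Both marker lists are too small to be set apart from these shares. The part of these markers in the results below was not tested.

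ISG15 is made in response to interferon and is joined to lysines of target proteins through the same kind of enzyme relay that ubiquitin uses. UBA7 activates it, UBE2L6 carries it, and a ligase passes it on. HERC6 is the main ISG15 ligase in mouse cells, and TRIM25, best known as a ubiquitin ligase for the RNA sensor RIG-I, has also been described as one. USP18 cleaves ISG15 from its targets. Apart from its protease activity, USP18 binds the interferon receptor chain IFNAR2 and damps interferon signalling. Isg15 and Usp18 are themselves switched on by interferon, through a complex with STAT2 and IRF9 that binds the interferon-stimulated response element (ISRE) in promoters.

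Promoter sequences are shown because the members moved together and because this element is the known switch of Isg15. They are RefSeq sequences of mouse build GRCm38.p6, matched by symbol, which found 5 of the 6 genes: Isg15, Ube2l6, Uba7, Herc6 and Trim25. No sequence was found for Usp18, so its promoter was not examined. Each window ran from 250 bases before to 50 bases after the annotated transcript start. Windows were searched on both strands for the ISRE repeat GAAANNGAAA and for the shorter IRF core AANNGAAA, which lies inside every ISRE repeat. The ISRE repeat was found in 3.44% of 32851 promoter windows and the IRF core in 23.9%. A further motif, TTCNNNGAA (named GAS), was searched the same way and found in 8.3%. The lines below give 110 bases before the start and 10 after it, 5′ to 3′ along the gene, with motif letters in capitals. Isg15 is at chr4:156200809-156200928 (minus strand), Uba7 at chr9:107975457-107975576, Trim25 at chr11:88999293-88999412 and Ube2l6 at chr2:84798718-84798837, the latter 3 on the plus strand.
Isg15: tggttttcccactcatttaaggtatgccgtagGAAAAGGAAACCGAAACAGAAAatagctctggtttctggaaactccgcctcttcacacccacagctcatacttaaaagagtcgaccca
Uba7: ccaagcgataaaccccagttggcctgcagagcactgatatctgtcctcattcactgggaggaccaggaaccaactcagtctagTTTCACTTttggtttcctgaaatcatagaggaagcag
Trim25: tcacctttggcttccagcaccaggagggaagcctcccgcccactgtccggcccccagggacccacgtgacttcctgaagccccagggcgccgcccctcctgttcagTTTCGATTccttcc
Ube2l6: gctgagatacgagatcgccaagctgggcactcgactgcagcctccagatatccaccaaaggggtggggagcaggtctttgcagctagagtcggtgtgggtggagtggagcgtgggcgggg

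The Isg15 window held 3 overlapping ISRE repeats, which begin 78, 72 and 66 bases before the start, and a further IRF core that begins 128 bases before it. Uba7 had 1 IRF core on the opposite strand, 27 to 20 bases before the start. In Trim25, 1 IRF core on the opposite strand spanned the start itself. Ube2l6 and Herc6 had no match to the ISRE repeat or the IRF core in this window. No window of these genes held a GAS match. A letter match describes the sequence and shows neither binding nor a cause of a change. Counts of CpG, the dinucleotide that DNA methyltransferases modify, were 6 for Isg15, 15 for Ube2l6, 2 for Uba7, 4 for Herc6 and 18 for Trim25, against a median of 7 over all windows. Methylation itself was not measured.

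**Figure D1:**
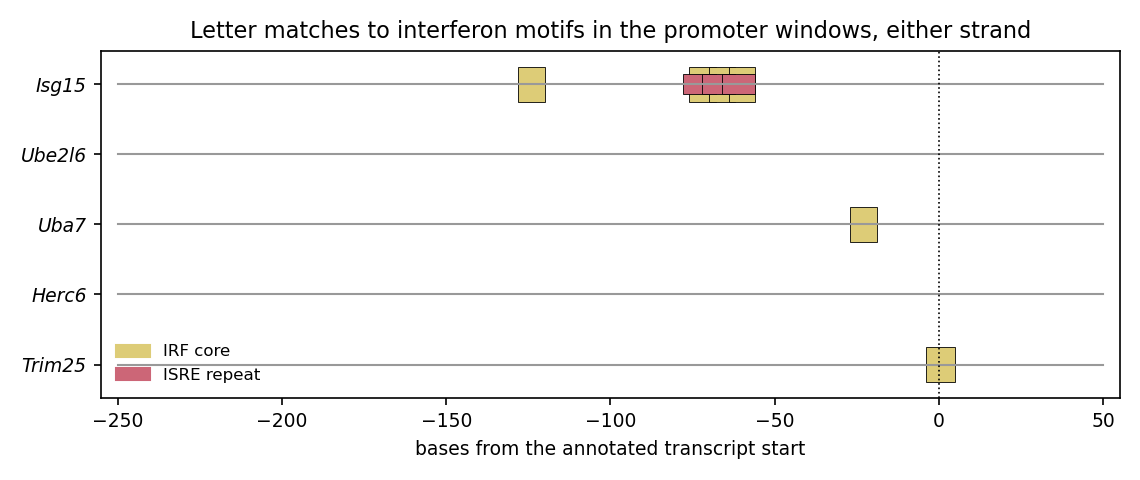
Positions of letter matches in the promoter windows of 5 genes, in bases from the annotated transcript start (dotted line). Red bars are ISRE repeats and yellow bars IRF cores on either strand. The Isg15 window has 3 overlapping ISRE repeats, Uba7 and Trim25 have 1 IRF core each, and Ube2l6 and Herc6 have none. Usp18 had no promoter sequence and is not shown.

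Every probe of the ISG15 system that could be tested was higher with DAC. Of the 7 probes of the rule, 6 passed the detection filter, and all 6 rose. The threshold was an adjusted p under 0.05 in limma's test, with Benjamini-Hochberg adjustment over 16883 probes, and 13.1% of all tested probes passed it in this direction. The rises exceeded 2-fold for 5 of the 6, against 1.76% of all tested probes. In all 6 the DAC arrays lay above the untreated arrays without overlap, against 20% of all tested probes. Their median log2 change was 1.41, with a range from 0.50 to 2.77, while the median over all tested probes was −0.014. The Isg15 probe rose as well, which made 7 of 7 tested probes and 5 of 5 tested genes. Of all genes, each by its brightest probe, 14.1% were called higher. Usp18 and Ube2l6 count with 2 probes each, and the members were chosen with earlier results of these data known. In RNA from whole plates, a change in RNA per cell and a change in the share of cells that carry the RNA cannot be told apart.

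**Figure D2:**
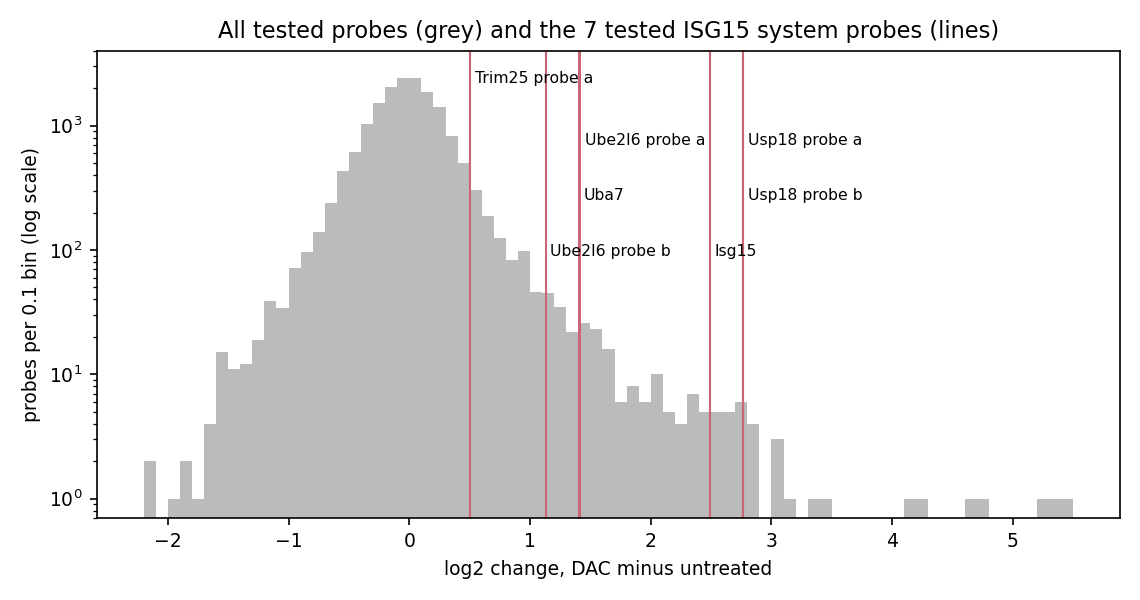
Distribution of the log2 change (DAC minus untreated) over all 16883 tested probes, with the number of probes per bin on a log scale. Red lines mark the 7 tested probes of the ISG15 system, from Trim25 at 0.50 to Usp18 at 2.77, all to the right of the bulk of probes.

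Isg15, the modifier itself, was read by probe 460221. Its normalized log2 intensity was 9.22, 9.41 and 9.25 on the untreated arrays and 11.77, 11.90 and 11.68 on the DAC arrays. The lowest DAC value lay more than 2 above the highest untreated value. Before normalization, the mean bead intensity was 673.3 ± 41.7 untreated and 3552 ± 485 with DAC (SD, n = 3 each). The fitted log2 change was 2.49 ± 0.11 (SE), a 5.62-fold rise (limma adjusted p = 7.83e-10). Only 33 of the 16883 tested probes had a larger rise.

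Usp18, the protease that removes ISG15, showed the largest rise of the system on both of its probes. Probe 1580528 read 9.34, 9.18 and 9.10 untreated and 11.95, 11.96 and 12.01 with DAC. Probe 4610139, dimmer at 7.53, 7.53 and 7.43 untreated, reached 10.39, 10.20 and 10.20 with DAC. On each probe the 3 DAC arrays stayed within 0.2 of one another and stood more than 2.5 above every untreated array. The log2 changes were 2.77 ± 0.10 (SE) and 2.76 ± 0.10 (limma adjusted p = 2.47e-10 for both). The difference between these changes within arrays was 0.0033 ± 0.089 (SE). Both probes were among the 19 largest rises on the array.

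The activating enzyme gene Uba7 had 1 probe, 5130066, named UBE1L in the table. Its log2 intensity was 8.13, 7.93 and 7.99 untreated and 9.53, 9.49 and 9.24 with DAC. The lowest DAC array was thus more than 1 above the highest untreated array, although DAC replicate 3 lay below the other DAC arrays. The rise was 1.41 ± 0.11 on the log2 scale (SE), or 2.65-fold (limma adjusted p = 5.30e-07).

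Ube2l6, which encodes the conjugating enzyme, rose on both probes. Probe 2650754, the brighter one, read 8.28, 8.37 and 8.30 untreated and 9.50, 9.42 and 9.41 with DAC. Probe 6350114 read 7.77, 7.70 and 7.78 untreated and 9.24, 9.16 and 9.08 with DAC. The spread within each group was small on both, with an SD of 0.044 to 0.079. The rises were 1.13 ± 0.10 (SE, 2.19-fold, limma adjusted p = 1.23e-06) and 1.41 ± 0.10 (2.66-fold, adjusted p = 1.53e-07). Within arrays the changes of these probes differed by 0.28 ± 0.057 (SE), so the size of the Ube2l6 rise differed between the probes, both of which showed it on 3 of 3 DAC arrays.

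Of the ligases, only Trim25 gave a measurable signal. Its probe 10402 read 9.07, 8.84 and 8.74 untreated and 9.47, 9.27 and 9.42 with DAC. The groups did not overlap, but the gap between untreated replicate 1 and DAC replicate 2 was the narrowest of any tested member. The rise was 0.50 ± 0.11 on the log2 scale (SE), or 1.42-fold (limma adjusted p = 0.00429), the least of the system. Without between-array normalization it was 0.39, in a setting where the median of all probes moved from −0.014 to −0.135. The other Trim25 probe, 5390438, was not detected on any array at a detection p under 0.01, with intensities of 35.9 to 46.9 and 1 array under 0.05. The HERC5-named probe of Herc6, 5220593, was also at background on all 6 arrays, with intensities of 33.1 to 38.7 and detection p-values of 0.303 to 0.797. Background signal is no proof that a transcript was missing, so the level of the main mouse ISG15 ligase was not measured.

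**Figure D3:**
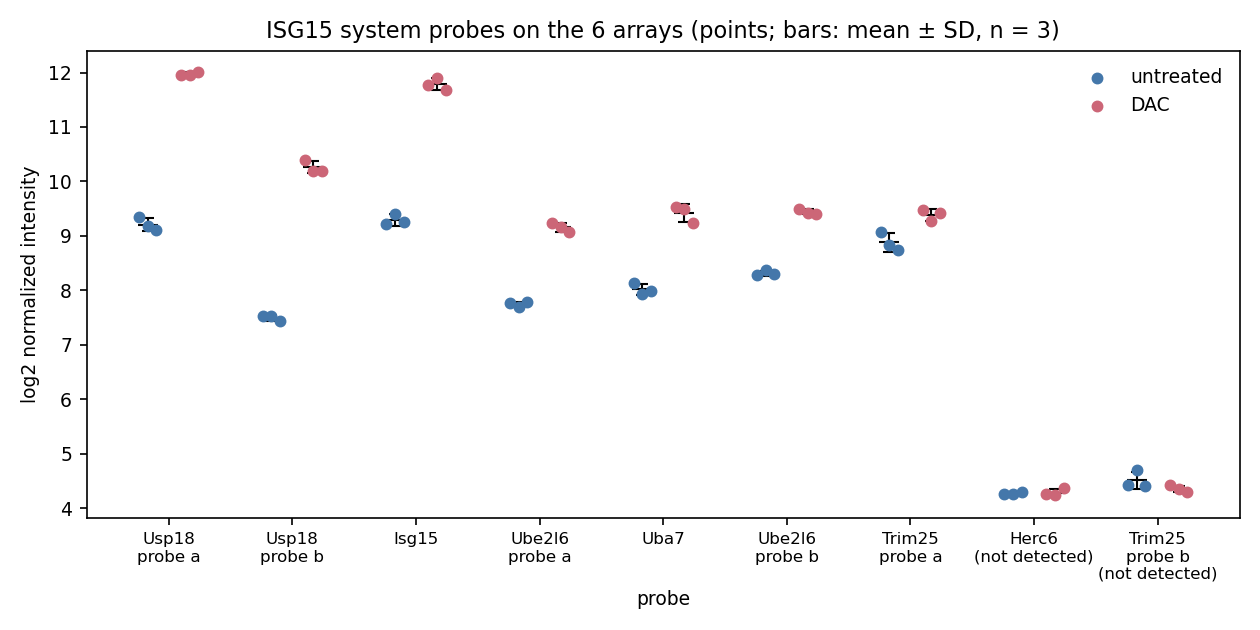
Normalized log2 intensity of each probe of the ISG15 system on the 3 untreated (blue) and 3 DAC (red) arrays, with mean and SD as black bars. The groups are separate for the 7 tested probes, by most for Usp18 and Isg15 and by least for Trim25 probe a (10402). Probe a is 1580528 for Usp18 and 6350114 for Ube2l6, and the undetected probes lie below 5 in both groups.

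The bead data allowed the error of a single reading to be set beside the spread between plates. For the 7 tested probes, 28 to 77 beads were read per array and the standard error of the mean over beads was 2.17% to 5.49% of the intensity. The raw ratio of DAC to untreated means was 6.43 and 5.70 for the probes of Usp18, 5.28 for Isg15, 2.33 for Uba7, 1.95 and 2.29 for Ube2l6 and 1.29 for Trim25. Each of these 7 raw ratios lies below the fold change after background correction and normalization.

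The fitted rises ranged from 0.50 to 2.77 on the log2 scale, but 3 arrays a group are too few for a permutation test to separate them. Intensities of different probes cannot be compared as levels, so the log2 ratio of 2 probes on each array was compared between the groups. Among 10 pairs of the 5 tested genes, each by its brightest probe, 8 had ratios that did not overlap between the groups. The share over pairs of all tested probes was not computed, so this count does not set the members apart. The change of Usp18 exceeded that of Uba7 by 1.36 ± 0.12 (SE, n = 3 arrays per group), that of Ube2l6 by 1.64 ± 0.09 and that of Trim25 by 2.26 ± 0.06. The change of Isg15 exceeded that of Uba7 by 1.08 ± 0.13. The 8 pairs had p = 0.1 in an exact two-sided permutation test, the smallest that 3 arrays against 3 can give, and adjusted p = 0.125 over the 10 pairs, so none could pass. Usp18 and Isg15 differed by 0.28 ± 0.13 (exact permutation p = 0.2) and Uba7 and Ube2l6 by 0.28 ± 0.11 (exact permutation p = 0.2), and here the ratios overlapped between the groups in both cases. Against the dimmer Ube2l6 probe, the change of Uba7 differed by −0.0056 ± 0.073 (SE), so this pair depends on the probe chosen.

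The other genes of each enzyme family are described by their counts, beside those of all genes. Each gene is given here by its brightest kept probe, and over all 11518 genes so represented 14.1% were called higher, 13.9% lower and 2.01% higher by at least 2-fold. Among 8 tested activating enzymes of ubiquitin and its relatives, none was called, and their log2 changes ran from −0.17 to 0.20. Uba1, the main ubiquitin-activating enzyme, changed by −0.011 ± 0.11 (SE, limma adjusted p = 0.951). With an unadjusted p under 0.05 the count was 0 as well.

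Among 25 other genes named Ube2, the conjugating enzyme symbol, 2 were called higher and 4 lower (8% and 16%), shares near those of all genes, with a median log2 change of −0.034. With 75th percentile scaling 4 were higher, and without between-array normalization 7 were lower. Ube2l3, which encodes the ubiquitin carrier most like UBE2L6, stood at 11.18 ± 0.09 untreated and 11.16 ± 0.13 with DAC (SD, n = 3; limma adjusted p = 0.918). The gene called higher with the smallest p was Ube2cbp, which is named for its binding to a conjugating enzyme and is not one, with a log2 change of 0.64 ± 0.11 (SE). Without it, 1 of 24 was called higher. Ube2q1 rose by 0.50 ± 0.13, while Ube2e3 fell by 0.46 ± 0.10 and Ube2z by 0.51 ± 0.12. The count lower was 2 without DAC replicate 1 or 3 or untreated replicate 1 or 2.

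Of 36 other genes named Usp plus a number, none was called higher and 8 were lower. The shares were 0% and 22.2%, against 14.1% and 13.9% of all genes. The median log2 change was −0.18, with a range of −0.52 to 0.29. Usp2, whose product has been described to act on ISG15 too, fell by 0.45 ± 0.10 on the log2 scale (SE, limma adjusted p = 0.00532). Usp12 fell by 0.51 ± 0.13, and Usp1, a protease of the DNA damage response, by 0.52 ± 0.15. Usp11, detected on all untreated arrays and on no DAC array, was at least 1.29-fold lower. The symbol also covers Usp6nl, a GTPase-activating protein, and Usp39, a splicing factor that was among the 8. Without these, 7 of 34 were lower. The count of 8 was 3 to 5 when any of the 6 arrays was left out, and 16 without between-array normalization. When an untreated array was left out, Usp11 could not pass the filter, which still asked for 3 arrays. One USP gene was called higher without untreated replicate 1.

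TRIM genes moved both ways. Of 28 tested besides Trim25, 8 were called higher, 3 of them by at least 2-fold, and 5 lower, with a median log2 change of 0.043. The shares were 28.6% higher and 17.9% lower, against 14.1% and 13.9% of all genes. Trim30a, whose product restrains Toll-like receptor signalling in mice, went from 5.38 ± 0.08 to 7.43 ± 0.15 (SD, n = 3), a 4.16-fold rise (limma adjusted p = 7.34e-09). Trim21, a cytosolic antibody receptor, rose 2.66-fold, Trim30d 2.60-fold and Trim34a 1.85-fold. Trim30a and Trim30d belong to a cluster of similar genes, so signal may be shared between them. Trim72 and Trim69, among the 8, were detected on no untreated array and passed the filter through the DAC arrays alone. With detection required on all 6 arrays the count higher was 6. Without DAC replicate 2 or 3 it was 5. The filter still asked for 3 arrays, so Trim72 and Trim69 left the test whenever a DAC array was left out. The count lower was 1 to 3 without untreated replicate 1, 2 or 3 or DAC replicate 1 or 2.

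Of the HERC family, 3 other genes were tested and 1 was called, as lower. With 13.9% of all genes called lower, this is too few to set the family apart. The giant ligase gene Herc2 fell by 0.33 ± 0.11 on the log2 scale (SE, limma adjusted p = 0.0337), a call that ended without untreated replicate 1 or 3 or DAC replicate 1 or 2. Herc1 and Herc4 changed by 0.16 and 0.15 (adjusted p = 0.264 and 0.294).

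Of 14 other ubiquitin-like modifiers tested, 1 was called higher and 1 lower, 7.14% each against 14.1% and 13.9% of all genes, which is too few to set the list apart. Urm1 was higher at a log2 change of 0.28 ± 0.10 (SE, limma adjusted p = 0.0487) and Gabarapl1, an autophagy modifier, lower at −0.30 ± 0.10 (adjusted p = 0.0355). Both calls ended when any 1 array was left out. The polyubiquitin gene Ubb averaged 13.84 on untreated and 13.81 on DAC arrays (limma adjusted p = 0.905), and Nedd8 changed by 0.17 (adjusted p = 0.310). Ubd, another modifier that interferon is known to induce, was detected on no array.

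**Figure D4:**
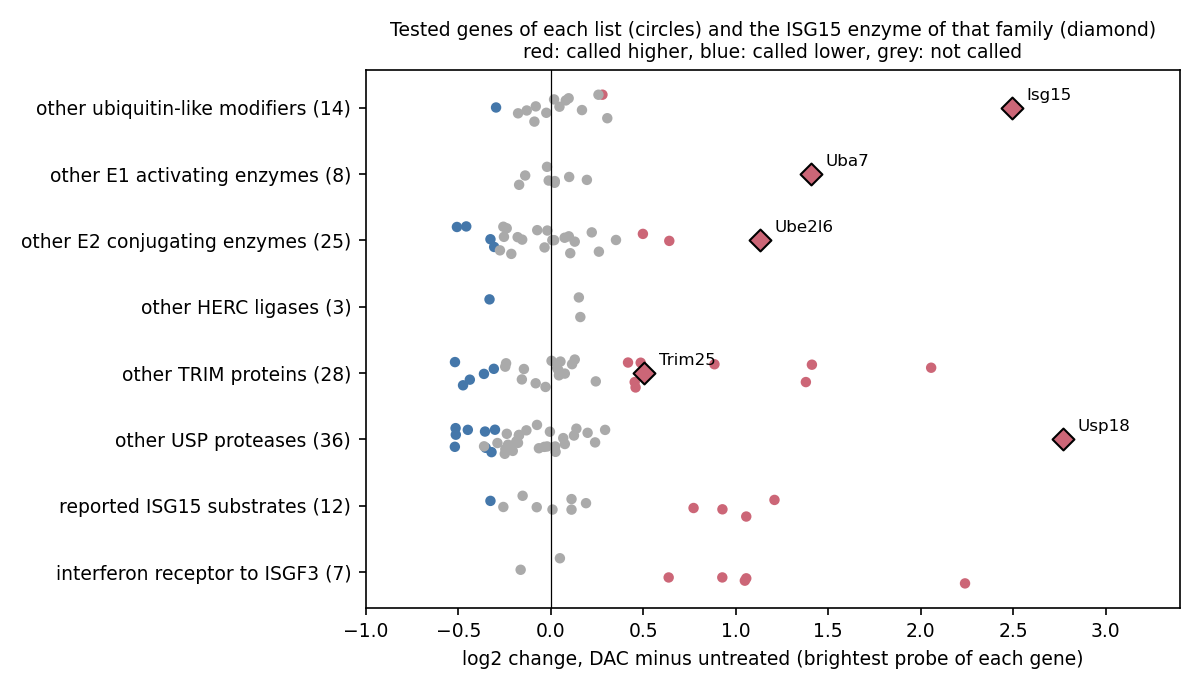
Log2 change (DAC minus untreated) of every tested gene in 8 lists, by its brightest probe, with the number of tested genes in brackets. Circles are list genes (red called higher, blue called lower, grey not called), and diamonds mark the ISG15 system gene of that family. Usp18 lies at 2.77, beyond the 36 other genes named Usp (−0.52 to 0.29), while Trim25 at 0.50 lies among the TRIM genes.

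In the known signalling route to Isg15, RNA of the transcription factors was higher, while the tested receptor and kinase genes were not called. The part of these genes in the rise of Isg15 was not tested. The list ran from the interferon receptor to the STAT2 and IRF9 complex, with Irf1 and Irf7 added. Of its 7 tested genes, 5 were called higher (71.4%, against 14.1% of all genes) and none lower, with a median log2 change of 0.93. Irf7, a transcription factor that amplifies interferon production, went from 5.49 ± 0.40 to 7.72 ± 0.15 (SD, n = 3), a 4.72-fold rise (limma adjusted p = 2.31e-07). Stat2 rose 2.07-fold and Irf9 1.90-fold. The receptor chain gene Ifnar2, which encodes the docking site of USP18, changed by −0.16 ± 0.11 (SE, adjusted p = 0.315) and the kinase gene Tyk2 by 0.049 ± 0.13 (adjusted p = 0.815). The probes of Ifnar1 and Jak1 were detected on no array.

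Among 12 tested genes whose proteins are known to carry ISG15, 4 were called higher and 1 lower, with a median log2 change of 0.11. The shares were 33.3% and 8.33%, against 14.1% and 13.9% of all genes. Among the 4 were Ddx58 (the RNA sensor RIG-I) at 1.21 ± 0.11 (SE, limma adjusted p = 2.67e-06) and the RNA-activated kinase gene Eif2ak2 at 0.93 ± 0.10 (adjusted p = 1.41e-05). Ube2n fell by 0.33 ± 0.10 (adjusted p = 0.0308), a call lost without DAC replicate 1 or 3 or untreated replicate 1 or 2. Of 10 other enzymes and partners of the system, Stat2 was called higher, and Usp2 and Usp13 lower. These shares, 10% and 20%, are near those of all genes. The count lower was 1 without DAC replicate 2 or untreated replicate 2 or 3, and the count higher was 2 without untreated replicate 1. Arih1, described as a further ISG15 ligase, changed by 0.22 ± 0.10 (adjusted p = 0.133). The integrin genes Itgal and Itgb2, which encode the receptor of free ISG15 on leukocytes, were detected on no array.

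Leukocyte markers moved in the same direction as these genes. Of 17 on the array, 9 were tested and 7 of them were called higher (77.8%, against 14.1% of all genes). Their median log2 change was 0.68. It was 0.63 with Cd53 and Csf1r, detected on no untreated array, set to the bound that detection allows. The sum of their linear intensities was 976.7 to 1048 untreated and 1565 to 1595 with DAC. Those with the smallest p were Laptm5 at 2.29-fold, the lysozyme gene Lyz1 at 1.72-fold, Cd53 at a bound of 2.00-fold and Csf1r at a bound of 1.33-fold. The other 8 lay at background throughout, including the defining genes Ptprc, Itgam and Adgre1. The T cell gene Cd3e was detected on all 6 arrays and not called (limma adjusted p = 0.134). Cd53 and Csf1r passed the filter through the DAC arrays alone, and with detection required on all 6 arrays the count higher was 5. Without DAC replicate 2 or 3 it was 4. The filter still asked for 3 arrays, so Cd53 and Csf1r left the test whenever a DAC array was left out. The part of leukocytes in the rise of the ISG15 system was not tested.

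The profiles most like that of Isg15 over the 6 arrays, by the root mean square difference of mean-centred log2 values, were those of Gstp2 (0.049), Pkd1l2 (0.085), Aldh1a3 (0.095), Oas1g (0.096) and Apol9a (0.12). Nearest to Usp18 were Glipr1 (0.058), Ifit3b (0.098), Got1l1 (0.098), Rhox2e (0.12) and Ltc4s (0.12). Each gene was taken by its brightest probe, and 2 profiles with predicted, clone or unmatched names were passed over for each query. No other gene of the ISG15 system was among them, while the dimmer probe of Usp18 itself lay at 0.089 from the brighter one. Oas1g and Ifit3b belong to interferon-induced families, whereas Rhox2e is a reproductive homeobox gene. Pkd1l2, Got1l1, Rhox2e and Ltc4s were detected on no untreated array and Aldh1a3 on 1, so their untreated values are at or near background. With 6 arrays in 2 groups, this distance mostly reflects the size of the group difference.

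**Figure D5:**
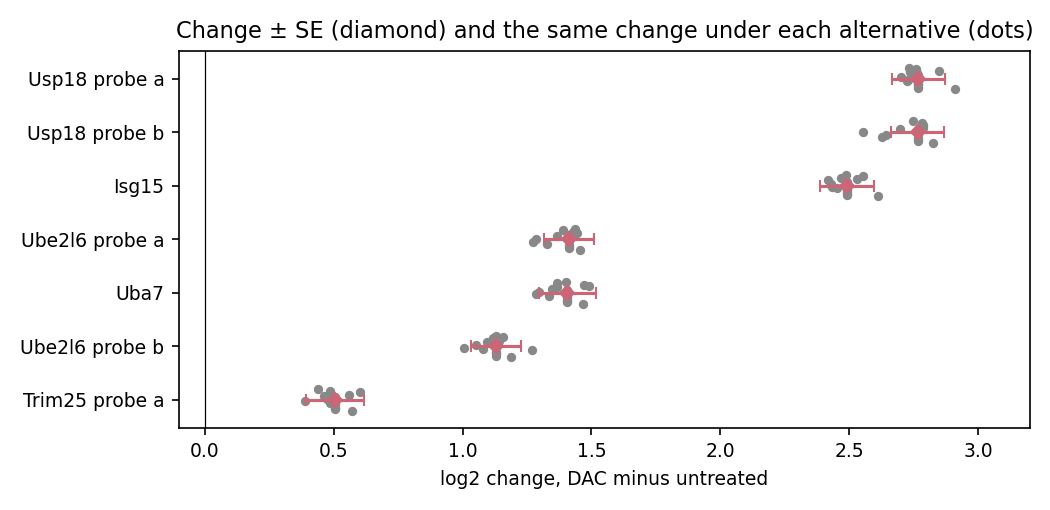
Log2 change (DAC minus untreated) of each tested probe of the ISG15 system, with its SE (red diamond and bar), and the same change under each alternative setting (grey dots). Every dot lies above 0, from 0.39 for Trim25 without between-array normalization to 2.91 for Usp18 with 75th percentile scaling.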

How the data were processed

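The deposited table gave, per the file headers, a mean bead intensity, its standard error, the number of beads and a detection p-value for each probe and array. The beads were counted per probe, and the bead counts and the standard error (a signal of the same linear scale) were used as deposited. No step between scanner and table is given in the sources used here. A further deposited table of processed intensity lists probes under other identifiers, so it served for counts of probes only. Intensities were background-corrected by normexp from the detection p-values in limma 3.58.1 under R 4.3.3, with an offset of 16, and log2 values were quantile normalized. The filter kept probes that 3 or more arrays detected at p under 0.01. Groups were compared with lmFit and eBayes, with p-values adjusted by Benjamini-Hochberg over all 16883 kept probes. Names were updated through a RefSeq table (GRCm38.p6): 27760 probes matched by symbol, 7992 by synonym and 920 by gene identifier. Where no array of a group detected a probe, its fold is a bound against the lowest detected signal. The members and lists were chosen with earlier results of these data known. Named genes are all members, up to 4 called genes per list with the smallest p, and the 5 profiles nearest to Isg15 and to Usp18; others named were chosen after their values were seen, and a few genes under this rule are not reported here. Alternatives covered offset, background, normalization, filter, variance model, probe summary, replicate block and each array left out. The pipeline was tested on simulated data.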

Additional observations from a re-analysis of the deposited data

How the results depend on the processing

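The rise of each of the 7 tested ISG15 system probes kept its direction and its call under every alternative run, 17 for Isg15, Trim25, Uba7 and the brighter probes of Usp18 and Ube2l6 and 15 for their dimmer probes. The highest adjusted p-values came without the detection filter, at 0.0283 for Trim25 and at most 0.000624 for the others (limma). The log2 change ran from 2.42 to 2.61 for Isg15, 2.56 to 2.91 for Usp18, 1.29 to 1.49 for Uba7, 1.01 to 1.46 for Ube2l6 and 0.39 to 0.60 for Trim25. Over all probes, 2220 were called higher and 2454 lower. Without between-array normalization these were 1266 and 4224, so that 23.1% of called probes were higher in place of 47.5% (59.9% with 75th percentile scaling). In the deposited processed table, with no filter, they were 1066 and 979.

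Counts in the lists were small and moved more. With 75th percentile scaling the counts higher were 4 conjugating enzymes, 2 partners of the system, 2 ubiquitin-like modifiers and 1 USP gene, and the counts lower were 0 for HERC genes and 0 for modifiers. Without between-array normalization the counts lower were 7 conjugating enzymes, 8 TRIM genes, 16 USP genes and 2 ISG15 substrates, and the count of modifiers higher was 0. Without the detection filter, 1 conjugating enzyme and 1 USP gene were higher, and 1 partner, 0 HERC genes, 2 TRIM genes and 4 USP genes were lower. The mean of all probes per gene gave 1 conjugating enzyme higher and 2 modifiers lower. Leaving Ube2cbp out of the list, chosen after seeing the data, also gave 1 conjugating enzyme higher. The count of modifiers higher was 0 with an offset of 50, without background correction, with detection p under 0.05 and with the trended, robust variance model. With 1 array left out, counts higher ran from 4 to 7 for leukocyte markers, 5 to 8 for TRIM genes, 1 to 2 for partners, 0 to 1 for USP genes and 0 to 0 for modifiers. Counts lower ran from 2 to 3 for conjugating enzymes, 1 to 2 for partners, 0 to 1 for HERC genes, 1 to 4 for TRIM genes, 3 to 5 for USP genes, 0 to 0 for modifiers and 0 to 1 for substrates. In the runs with 1 array left out, the filter still asked for 3 arrays. A gene detected on the arrays of 1 group alone thus left the test when any of them was left out. Other causes were not tested.

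Arrays with the same replicate number had deviations that correlated at 0.311, 0.309 and −0.030. The first 2 lie above every pair with other numbers, which ran from −0.394 to 0.161. Deviations were taken from the mean of each group's own 3 arrays. A positive pair thus pushes the other pairs down, and the gap is partly built in. The labels name no batch, so the main fit left the number out, and whether it pairs plates was not tested. With the replicate number as a block, 2634 probes were called higher and 2996 lower, in place of 2220 and 2454. In the lists, 2 partners and 1 USP gene were then called higher, in place of 1 and 0. The partner list shares genes with the USP list, so 1 gene can count in both. Conjugating enzymes were 3 higher and 5 lower, in place of 2 and 4. Lower calls were 10 for USP genes and 3 for partners, in place of 8 and 2. All 7 tested ISG15 system probes stayed called. A chip block was not run because the headers name no chip.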

Other observations

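The run of ISRE repeats shown for Isg15 was compared with all promoter windows after it had been seen. Of 32851 windows, 5 (0.0152%) held at least 3 ISRE repeats. They belong to Isg15, Cybb, Washc3, Gm33857 and Gm3512. Cybb, a subunit of the phagocyte oxidase, was on the array and did not pass the detection filter. Washc3, part of an endosomal actin-nucleating complex, was detected on all 6 arrays and stood at 10.50 ± 0.26 untreated and 10.51 ± 0.13 with DAC (SD, n = 3; limma adjusted p = 0.952). Isg15 was thus the sole called gene among the 2 tested, which is too few to relate the motif to the response.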
